A study of Mus musculus with 12 samples.

Results

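The genes described here are 9 core members of the Bcl2 family, the proteins that decide whether the outer membrane of the mitochondrion stays closed or opens during apoptosis. They were chosen by symbol as the main genes of each class, and were Bcl2, Bcl2l1, Mcl1, Bax, Bak1, Bcl2l11, Bbc3, Pmaip1 and Bid, that is 9 of the 14850 genes with a symbol in the 3 deposited tables.

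RNA was sequenced from 12 libraries of 562 cells, 3 in each of 4 groups, to ask how loss of an autophagy gene changes transcription in vascular tumor cells. 562 cells are a spontaneously immortalized endothelial line from the cutaneous vascular tumors of Tsc1 f/f;Scl-Cre mice given tamoxifen, so every group, the control labelled wildtype included, lacks Tsc1, an inhibitor of mTORC1. The labels give the tissue as lymphatic endothelial cells and the strain as C57BL/6. The Fip200 KO, Atg5 KO and Atg7 KO groups were made by CRISPR-Cas9 from a lentiviral vector with puromycin selection, and controls carried a guide against EGFP. Fip200, encoded by Rb1cc1, starts autophagosome formation, whereas Atg5 and Atg7 attach LC3 to the growing membrane. All groups descend from 1 line, and which clones or pools went into each library is not given in the sources used here, so p-values measure the spread between libraries, which may be technical.

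Bcl2 family proteins fall into 3 classes. Pro-survival members (Bcl2, Bcl-xL from Bcl2l1, Mcl1) hold the effectors Bax and Bak in check, and BH3-only proteins (Bim from Bcl2l11, Puma from Bbc3, Noxa from Pmaip1, Bid) bind the pro-survival members or activate the effectors directly. Once Bax or Bak opens the membrane, cytochrome c is released, Apaf1 assembles the apoptosome, and caspase-9 activates the executioner caspases. Much of this control acts on the proteins through binding, cleavage and turnover, so transcript levels describe only the supply of each protein. In endothelial cells, Bim is a well-known brake on survival when growth factors or matrix contact are lost, and forkhead factors of the FoxO family are known activators of Bcl2l11 and Bbc3.

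Values are RPKM, reads per kilobase of transcript, scaled to the mapped reads of the library, a level per length that allows genes to be compared within a library. Whole reads could be recovered from them and summed to between 17264989 and 23627965 per library. Rb1cc1 was at 6.43, 8.28 and 7.73 RPKM in controls and at 5.18, 6.84 and 2.06 in Fip200 KO cells, with overlap. Atg5 was at 8.53 to 15.6 in Atg5 KO cells against 10.6 to 14.2 in controls, and Atg7 at 2.64 to 8.34 in Atg7 KO cells against 18.4 to 25.0. Atg7 was also below all controls in Atg5 KO cells, at 9.94 to 11.9, and at 38.3, 12.4 and 8.23 in Fip200 KO cells, the last within the Atg7 KO range. Small insertions and deletions made by Cas9 need not lower a transcript, so these levels are a weak check of the labels. All 7 endothelial markers were detected in every group, with a summed level of 1017 to 2457 RPKM in controls, 1645 to 2188 in Fip200 KO, 2132 to 2578 in Atg5 KO and 1768 to 2651 in Atg7 KO cells. Cdh5 was 116 to 309.7 RPKM in controls. It was wholly above them at 443 to 571 with Atg5 lost and 361 to 805 with Atg7 lost. So was Erg, at 46.7 to 92.0 in controls against 102 to 111 and 106.5 to 144. Tie1 was above controls with Atg5 lost (89.2 to 212 against 233 to 267) but within them with Atg7 lost (125 to 153). Pecam1, Kdr, Tek and Emcn overlapped the controls in both groups. Beside this, 28.4% and 19.2% of all genes tested lay wholly above controls with Atg5 and Atg7 lost. The summed lymphatic markers were also above controls (261.5 to 358 RPKM) with Atg5 lost (388 to 497) and Atg7 lost (379 to 488). In Fip200 KO cells they spanned the controls, at 219.5 to 821. Of the single genes, Lyve1 lay wholly above controls in Atg5 KO and Atg7 KO cells, and Flt4 in Atg5 KO cells only. Pdpn and Prox1 overlapped the controls in both. The lymphatic markers Lyve1, Pdpn and Flt4 were between 31.7 and 393 RPKM while Prox1 was at most 5.79. Summed fibroblast and mural markers (6 listed, 6 in the tables) were 1.02 to 13.8 RPKM in controls and 1.57 to 16.0 in KO cells, and epithelial markers (4 listed, 2 in the tables) 6.19 to 10.6 in controls and 0.392 to 6.28 in KO cells. Krt18 carried nearly all of the epithelial sum in controls, at 6.17 to 10.55 RPKM. Krt8 went the other way in Fip200 KO cells, at 0.278 to 0.308 against at most 0.058 in controls. Of the leukocyte list (5 listed, 3 in the tables) Cd68 carried nearly all of the sum, at 34.4 to 91.7 RPKM in controls, 15.9 to 263 in Fip200 KO, 9.94 to 11.6 in Atg5 KO and 6.95 to 27.1 in Atg7 KO cells, and the defining markers Ptprc and Adgre1 were at most 0.129. The Fip200 KO libraries differed most among themselves, with a chi-square per degree of freedom over genes of 143 to 316, largest for replicates 1 and 3, against 8.66 to 144 between replicates of the other groups. Replicate 1 held the 263 RPKM of Cd68, and replicate 3 the 2.06 RPKM of Rb1cc1. The part of Cd68, the endothelial and lymphatic markers and the epithelial markers in the results was not tested. Since these are bulk samples, fewer cells of a kind and less RNA per cell cannot be told apart.

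In control 562 cells the members covered a wide range of levels. Mcl1 was highest, at 100.3 ± 23.3 RPKM (SD, n = 3), followed by Bax at 76.4 ± 7.43, Bcl2l1 at 65.0 ± 6.19 and Bak1 at 43.1 ± 5.20. Bcl2l11 at 25.1 ± 9.28 and Bid at 19.3 ± 4.15 came next, Bbc3 at 3.996 ± 0.773 and Bcl2 at 2.67 ± 0.376 were low, and Pmaip1 was near its detection limit at 0.171 ± 0.0821. Libraries of neighbours in this order overlapped for Mcl1 with Bax, Bax with Bcl2l1, and Bcl2l11 with Bid, and were apart for the others. Mcl1 and Bcl2l1, not Bcl2, supplied most pro-survival transcript in these cells. In Atg5 KO cells Bcl2l1 stood below Bak1, with no overlap, and in all 3 KO groups Bid ranked above Bcl2l11, with the libraries of the pair apart.

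**Figure D1:**
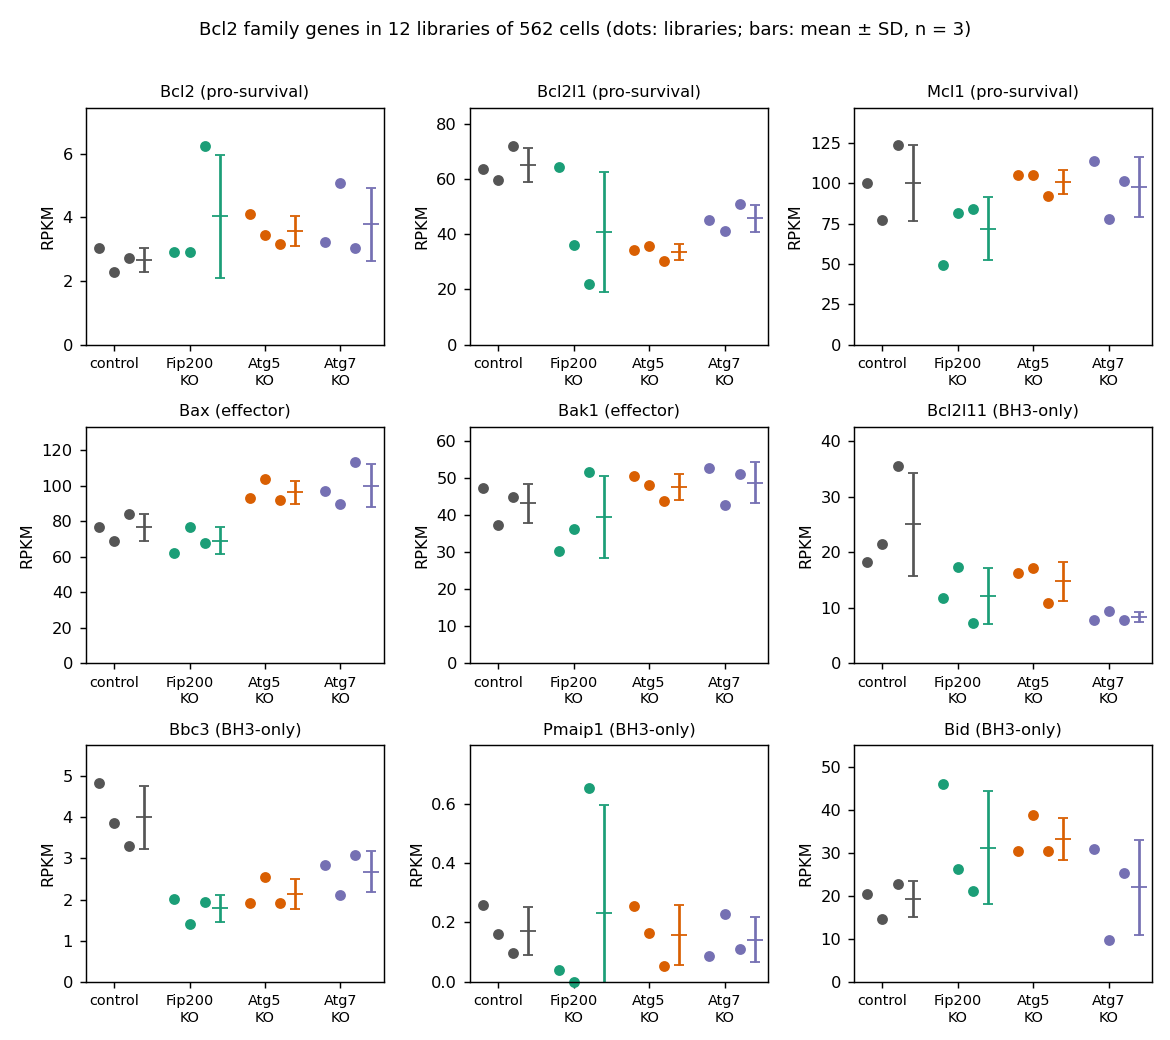
Level of each of the 9 genes in RPKM (vertical axes, each from 0) in the 12 libraries, by group; dots are libraries in replicate order and bars the mean ± SD of 3. The 9 KO libraries of Bcl2l11 and of Bbc3 lie below all 3 controls, at no more than 17.3 and 3.08 RPKM, while Bcl2l1 is low in Atg5 KO and Atg7 KO cells and spread from 21.8 to 64.3 in Fip200 KO cells. The error bar of Pmaip1 in Fip200 KO cells runs below 0 and ends at the axis.

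The results below turn mainly on Bcl2l11, Bbc3 and Bcl2l1, the members that passed the test at a lower level in at least 1 comparison. RefSeq promoters of GRCm38.p6, each 250 bases before to 50 bases after an annotated start, were held for 8 of the 9 members in 13 windows, and Pmaip1 had no entry. For each of the 3 genes, 1 window held a forkhead word, TGTTTAC or TGTTTGC on either strand, and these windows are shown because the 3 genes carry the lower levels described next. Capitals mark the word, which reads as its reverse complement in Bcl2l11, and sequences run 5′ to 3′ along the strand of the gene.
Bcl2l11, chr2:128125788-128126087, + strand: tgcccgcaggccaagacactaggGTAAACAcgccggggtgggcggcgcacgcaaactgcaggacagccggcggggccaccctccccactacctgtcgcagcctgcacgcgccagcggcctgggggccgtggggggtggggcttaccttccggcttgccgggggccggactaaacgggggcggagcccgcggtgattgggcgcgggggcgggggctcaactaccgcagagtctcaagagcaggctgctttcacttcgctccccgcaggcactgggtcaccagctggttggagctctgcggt
Bbc3, chr7:16310011-16310310, + strand: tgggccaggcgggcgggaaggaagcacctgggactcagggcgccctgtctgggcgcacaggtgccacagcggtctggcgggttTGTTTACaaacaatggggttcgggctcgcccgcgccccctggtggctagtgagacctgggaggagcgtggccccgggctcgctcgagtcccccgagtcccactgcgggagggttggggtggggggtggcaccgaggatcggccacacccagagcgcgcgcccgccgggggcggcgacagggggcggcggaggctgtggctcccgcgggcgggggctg
Bcl2l1, chr2:152828440-152828739, - strand: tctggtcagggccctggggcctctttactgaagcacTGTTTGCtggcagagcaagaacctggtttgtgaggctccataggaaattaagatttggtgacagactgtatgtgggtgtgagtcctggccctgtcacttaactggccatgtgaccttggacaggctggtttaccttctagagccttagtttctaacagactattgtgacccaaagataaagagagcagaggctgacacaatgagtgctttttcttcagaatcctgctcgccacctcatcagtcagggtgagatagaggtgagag
The first base of the word, counted along the gene with the start as base 0, lay at -227 in Bcl2l11, -167 in Bbc3 and -214 in Bcl2l1. Bcl2l11 had 1 further window, Bbc3 and Bcl2l1 2 each, and none of these held either word, nor did the windows of the 5 other members. Either word was present in 8.48% of 32851 promoter windows of the same length. The words were chosen after the values were known, as 2 of 10 searched on both strands. The STAT words TTCNNNGAA and TTCNNGAA were searched as well. The GC box was searched as GGGCGG, the E-box as CACGTG and the TATA box as TATAAA. For the cAMP response element the whole word TGACGTCA and its shorter form TGACG, which overlap, were both used. TGATGNAA stood for CHOP sites. Of these, GGGCGG, present in 35.7% of all windows, was found in windows of Bcl2, Mcl1, Bax, Bcl2l11, Bbc3 and Bid. The shorter cAMP word (20.8%) was found in a window each of Bcl2, Mcl1 and Bbc3, and the E-box word (7.15%) in a window each of Bax and Bbc3. None of the 13 windows held TTCNNNGAA (8.3% of all windows), the other STAT word (8.52%), the TATA box (13.6%), the whole cAMP word (1.79%) or the CHOP word (3.97%). A match describes letters in a window and says nothing of whether a factor binds there.

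Of the pro-survival members, only Bcl2l1 passed the test, in Atg5 KO and Atg7 KO cells. Whether it differed from the other members was not tested. Bcl2l1 encodes Bcl-xL, a guard of the mitochondrial membrane. Its level was 63.6, 59.6 and 71.7 RPKM in controls, 45.3, 41.1 and 50.8 in Atg7 KO and 34.3, 35.7 and 30.2 in Atg5 KO cells. Every library of both groups was below every control. Bcl2l1 fell by 0.95 on the log2(RPKM + 0.5) scale in Atg5 KO cells (SE 0.119, limma adjusted p = 0.00487), which is 1.93-fold lower. In Atg7 KO cells it fell by 0.50 (SE 0.150, limma adjusted p = 0.0647), or 1.42-fold. In Fip200 KO cells the levels were 64.3, 35.9 and 21.8 RPKM, so that replicate 1 lay within the controls and the others below them. Its log2 difference there was -0.80 (SE 0.370, limma adjusted p = 0.341), and -1.20 without replicate 1 (adjusted p = 0.119). The Atg7 KO call was lost without any 1 of control replicates 1, 2 and 3 or Atg7 KO replicate 1 (adjusted p from 0.113 to 0.213) and held without Atg7 KO replicate 2 or 3.

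Mcl1 encodes a short-lived pro-survival protein whose amount depends on steady synthesis. Its transcript was 100.2, 77.0 and 124 RPKM in controls, 104.9, 105.5 and 92.3 in Atg5 KO, 114, 77.8 and 101.6 in Atg7 KO and 49.5, 81.9 and 84.3 in Fip200 KO cells. Every KO group overlapped the controls. Log2 differences from control were 0.03 (95% interval -0.39 to 0.46) in Atg5 KO, -0.03 (-0.56 to 0.50) in Atg7 KO and -0.49 (-1.16 to 0.17) in Fip200 KO cells, where leaving out replicate 1, the lowest library, gave -0.24, and the signs in Atg5 KO and Atg7 KO cells turned with the scaling, the prefix term or the libraries used.

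Bcl2, the founding member, stayed low. It was 3.03, 2.28 and 2.71 RPKM in controls and ranged from 2.92 to 6.25 in the 9 KO libraries, highest in Fip200 KO replicate 3. Atg5 KO and Atg7 KO libraries were each above the controls without overlap. For Atg7 KO the margin was slight, with replicate 3 at 3.029 RPKM and control replicate 1 at 3.028. Log2 differences were 0.36 (SE 0.166, limma adjusted p = 0.141) in Atg5 KO and 0.41 (SE 0.239, limma adjusted p = 0.270) in Atg7 KO cells. Neither passed the test.

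The effectors Bax and Bak1 encode the proteins that form the pore. Bax was 76.5, 68.9 and 83.8 RPKM in controls, 93.2, 103.7 and 91.7 in Atg5 KO, 97.2, 89.4 and 113 in Atg7 KO and 62.1, 76.9 and 67.8 in Fip200 KO cells. It lay above the controls in every Atg5 KO and Atg7 KO library and overlapped them in Fip200 KO cells. Bax rose in Atg5 KO cells by 0.33 on the log2 scale (SE 0.114, limma adjusted p = 0.0657). That call was lost with median-of-ratios scaling (adjusted p = 0.115) and without control replicate 1 or 2 or Atg5 KO replicate 1 or 2 (adjusted p from 0.105 to 0.211). In Atg7 KO cells the difference was 0.38 (SE 0.154, limma adjusted p = 0.131). It was 0.46 without Atg7 KO replicate 2 and then passed (adjusted p = 0.0803), while adjusted p-values with a library left out ran up to 0.311. Bak1 ranged from 37.3 to 47.4 RPKM in controls and from 30.3 to 52.6 in KO libraries, and its log2 differences of -0.16 without Fip200, 0.14 without Atg5 and 0.18 without Atg7 did not pass.

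Among BH3-only members, Bcl2l11 encodes Bim, which binds every pro-survival protein of the family. It was 18.2, 21.4 and 35.6 RPKM in controls, 7.81, 9.39 and 7.79 in Atg7 KO, 16.3, 17.2 and 10.8 in Atg5 KO cells, and Fip200 KO cells had 11.8, 17.3 and 7.19. All 9 KO libraries lay below the lowest control, although the highest of them, 17.3 RPKM, was close to it. Bcl2l11 fell by 1.48 on the log2 scale in Atg7 KO cells, 2.79-fold (SE 0.260, limma adjusted p = 0.0193), the only call among the members with a fold change of at least 1 on that scale. It fell by 0.71 in Atg5 KO cells (SE 0.285, limma adjusted p = 0.0988), a call at the edge of the 0.1 threshold that held without control replicate 1 (adjusted p = 0.0608) and was lost without each of the other 5 libraries (adjusted p from 0.128 to 0.234). In Fip200 KO cells its log2 difference was -1.04 (SE 0.377, limma adjusted p = 0.248), and -1.07 without replicate 1.

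Bbc3 encodes Puma, a p53 and FoxO target that binds all pro-survival members. Its level was 4.83, 3.85 and 3.30 RPKM in controls, 2.84, 2.11 and 3.08 in Atg7 KO, 1.91, 2.56 and 1.92 in Atg5 KO cells, and Fip200 KO cells had 2.02, 1.41 and 1.94. These levels rest on 129 to 181 reads per control library and 56 to 124 per KO library, and again all 9 KO libraries were below the 3 controls. Bbc3 fell by 0.77 in Atg5 KO cells on the log2(RPKM + 0.5) scale, 1.70-fold (SE 0.189, limma adjusted p = 0.0259). In Fip200 KO cells its difference was -0.97 (SE 0.257, limma adjusted p = 0.152), or -1.05 without replicate 1, and in Atg7 KO cells -0.50 (SE 0.221, limma adjusted p = 0.159). Among the 12232 genes that reached 0.5 RPKM in 3 or more of the 12 libraries, 890 had all 9 KO libraries below all 3 controls, or 7.28%, and 2 of the 8 members did.

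Bid links death receptors to mitochondria, since caspase-8 cleaves it into its active form. It was 20.4, 14.7 and 22.8 RPKM in controls, 30.5, 38.8 and 30.4 in Atg5 KO, 46.0, 26.3 and 21.1 in Fip200 KO and 31.0, 9.65 and 25.4 in Atg7 KO cells. Only Atg5 KO libraries were all above the controls, and Atg7 KO libraries lay on both sides. Bid rose by 0.78 in Atg5 KO cells on the log2 scale, 1.72-fold (SE 0.190, limma adjusted p = 0.0245). The differences were 0.62 (SE 0.325, limma adjusted p = 0.391) in Fip200 KO cells, where leaving out replicate 1 gave 0.31, and 0.05 (SE 0.420, limma adjusted p = 0.939) in Atg7 KO cells, the latter 0.55 without Atg7 KO replicate 2 (adjusted p = 0.123) and -0.26 without Atg7 KO replicate 1.

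Pmaip1 encodes Noxa, a selective partner of Mcl1. It had 5 to 13 reads in control libraries, 3 to 13 in Atg5 KO, 4 to 11 in Atg7 KO and 0, 2 and 38 in Fip200 KO libraries, where 3 reads is the upper limit that a count of 0 allows. Fip200 KO replicate 3 alone reached 0.653 RPKM. Pmaip1 did not pass the filter on low values and was not tested.

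Counted by comparison, 0 of 8 tested members passed at an adjusted p of at most 0.1 in Fip200 KO cells, where 1.69% of 11802 genes passed lower and 0.356% higher, and 1.64% did so lower by 1 or more on the log2 scale. Left without 1 library at a time, Fip200 KO differences ran from -1.20 to -0.43 for Bcl2l1, -1.34 to -0.73 for Bcl2l11, -0.67 to -0.24 for Mcl1, 0.12 to 0.61 for Bcl2 and 0.31 to 0.86 for Bid, and no member passed. By limma, Bcl2l11 had an unadjusted p of 0.0267 and Bbc3 of 0.00644 there. Loss of Atg5 left 3 members lower and 2 higher past the test, where 18.7% of 11832 genes passed lower and 22.9% higher, and no member reached the log2 fold change of 1 that 6.94% reached with a lower level. After loss of Atg7, 2 members passed at a lower level and 0 at a higher one (Bax had an unadjusted limma p of 0.0410), against 13.7% and 11.3% of 11783 genes, and Bcl2l11 was among the 6.81% that passed lower by 1 or more on the log2 scale. Of the 8 members, 2 lay wholly below the controls in Fip200 KO libraries and 0 wholly above, beside 12.4% and 11.7% of all genes tested. For Atg5 KO libraries these numbers were 3 and 3, beside 22% and 28.4%, and for Atg7 KO libraries 3 and 2, beside 20.4% and 19.2%. The 2 above in Atg7 KO libraries include Bcl2, at 3.029 against 3.028 RPKM in the closest control. The median log2 difference over the 8 members was -0.32 for Fip200 KO, 0.09 for Atg5 KO and 0.01 for Atg7 KO, beside 0.02, 0.06 and -0.01 over all genes tested. With 3 against 3 libraries an exact two-sided permutation test cannot go below p = 0.1, which Bcl2l11 and Bbc3 reached in all 3 comparisons.

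**Figure D2:**
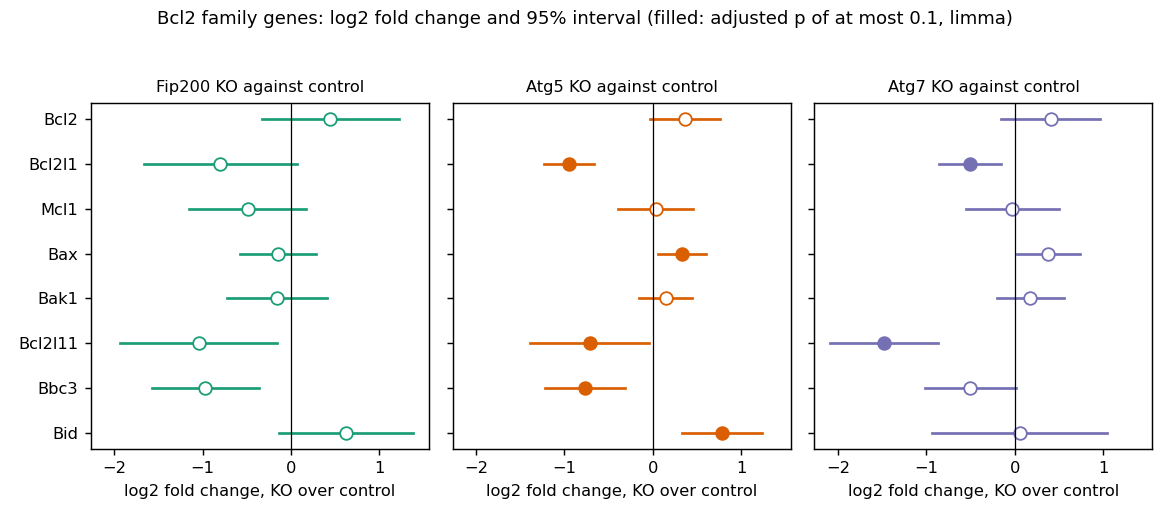
Log2 fold change of KO over control on the log2(RPKM + 0.5) scale (horizontal axis) with its 95% interval for the 8 tested members in each comparison, 3 libraries a group; filled points passed an adjusted p of at most 0.1 by limma. Points for Bcl2l1, Bcl2l11 and Bbc3 lie below 0 in all 3 panels, and 0, 5 and 2 points are filled in the Fip200, Atg5 and Atg7 panels.

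Library names carry 3 prefixes, which the labels do not explain. Control replicate 1 shares one with the Fip200 KO libraries, control replicates 2 and 3 another with Atg5 KO replicates 1 and 2, and Atg5 KO replicate 3 the last with the Atg7 KO libraries, so for Atg7 KO cells the group and the prefix cannot be told apart within a prefix. In the 4 libraries of that prefix Bcl2l11 was 7.79 to 10.8 RPKM. Within the first prefix (3 against 1 library) log2 differences in Fip200 KO cells were -0.77 for Bcl2l1, -0.65 for Bcl2l11, -1.23 for Bbc3 and 0.52 for Bid. Within the second (2 against 2 libraries, where the smallest exact permutation p is 0.333) those in Atg5 KO cells were -0.89, -0.71, -0.58 and 0.89, and 0.37 for Bax. With the prefix as a term in a fit of 12 libraries, 0 members passed in any comparison by limma. All tested members kept their direction except Mcl1 in Atg7 KO cells, so a kept direction was not particular to Bcl2l1, Bcl2l11 and Bbc3. Bcl2l11 in Atg7 KO cells was then -1.07 (adjusted p = 0.600), Bcl2l1 in Atg7 KO cells -0.31 (adjusted p = 0.903), Bcl2l1 in Atg5 KO cells -0.89 (adjusted p = 0.241), Bbc3 in Fip200 KO cells -1.23 (unadjusted p = 0.0035, adjusted p = 0.319) and Bbc3 in Atg7 KO cells -0.20 (adjusted p = 0.904). When all 12 libraries shared 1 estimate of the spread without that term, Bbc3 and Bcl2l11 passed in Fip200 KO cells (limma adjusted p = 0.0357 and 0.0926), Bbc3 and Bcl2l1 in Atg5 KO cells (0.0513 and 0.0673), and Bcl2l11 in Atg7 KO cells (0.0195).

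The KO cells were also compared with each other, since a call in one and none in another does not show a difference. No member passed between any pair, where 0% of 12232 genes passed in Atg5 KO against Fip200 KO, 0% in Atg7 KO against Fip200 KO and 0% in Atg7 KO against Atg5 KO cells, while 927, 916 and 562 genes had an unadjusted limma p under 0.05. Bax was higher without overlap in Atg5 KO than in Fip200 KO cells, by 0.48 on the log2 scale (95% interval 0.16 to 0.81, unadjusted p = 0.00736, limma adjusted p = 0.523), and in Atg7 KO than in Fip200 KO cells, by 0.53 (0.21 to 0.85, unadjusted p = 0.00405, limma adjusted p = 0.528). Bcl2l11 was lower in Atg7 KO than in Atg5 KO cells, also without overlap, with a log2 difference of -0.77 (-1.48 to -0.05, unadjusted p = 0.0372, limma adjusted p = 1.00). Bcl2l1 was higher without overlap in Atg7 KO than in Atg5 KO cells, at 0.44 with an interval that included 0 (-0.21 to 1.10), and the difference for Bid was -0.73 (-1.60 to 0.14). Mcl1 was higher without overlap in Atg5 KO than in Fip200 KO cells, by 0.52 (-0.01 to 1.05, limma adjusted p = 0.653), and Bbc3 in Atg7 KO than in Fip200 KO cells, by 0.47 (-0.01 to 0.95, limma adjusted p = 0.671). Thus 0 of 8 members lay wholly lower and 2 wholly higher in Atg5 KO than in Fip200 KO cells, beside 5.91% and 8.44% of genes, 0 and 2 in Atg7 KO than in Fip200 KO cells, beside 4.37% and 3.86%, and 1 and 1 in Atg7 KO than in Atg5 KO cells, beside 11.2% and 5.38%.

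Ratios of members within a library do not depend on its scaling, and are described without a test. Bcl2l1 over Bax and Bid over Bcl2l11 each pair members that passed in opposite directions in Atg5 KO cells. Their separation there repeats those results and is no further evidence. The summed level of Bcl2, Bcl2l1 and Mcl1 over that of Bax and Bak1 was 1.35, 1.31 and 1.54 in controls, 1.09, 0.939 and 0.946 in Atg7 KO, 0.996, 0.952 and 0.927 in Atg5 KO cells, and Fip200 KO cells had 1.27, 1.07 and 0.940. Every KO library was below every control. Bcl2l1 over Bax was steady within groups, at 0.832 to 0.864 in controls, 0.329 to 0.368 in Atg5 KO and 0.449 to 0.466 in Atg7 KO cells, and spread from 0.322 to 1.04 in Fip200 KO cells. In the BH3-only class, Bid made up 36.6% to 46.7% of the summed level in controls and 45.2% to 76.8% in KO libraries, and Bcl2l11 41.6% to 57.7% against 18.7% to 43.9%. Bid over Bcl2l11 was 0.638 to 1.12 in controls, 1.52 to 3.90 in Fip200 KO, 1.87 to 2.82 in Atg5 KO and 1.03 to 3.97 in Atg7 KO cells, with Atg7 KO replicate 2 alone inside the control range. The summed BH3-only level over the pro-survival level was 0.262 to 0.312 in controls and lay above them in Atg5 KO libraries (0.341 to 0.406), below them in Atg7 KO libraries (0.173 to 0.257) and across them in Fip200 KO libraries (0.275 to 0.513). The summed level of all 9 genes was 304 to 355 RPKM in Atg5 KO, 277 to 356 in Atg7 KO and 285 to 388 in control cells, with overlap, and 263 to 279 in Fip200 KO cells, below all controls.

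**Figure D3:**
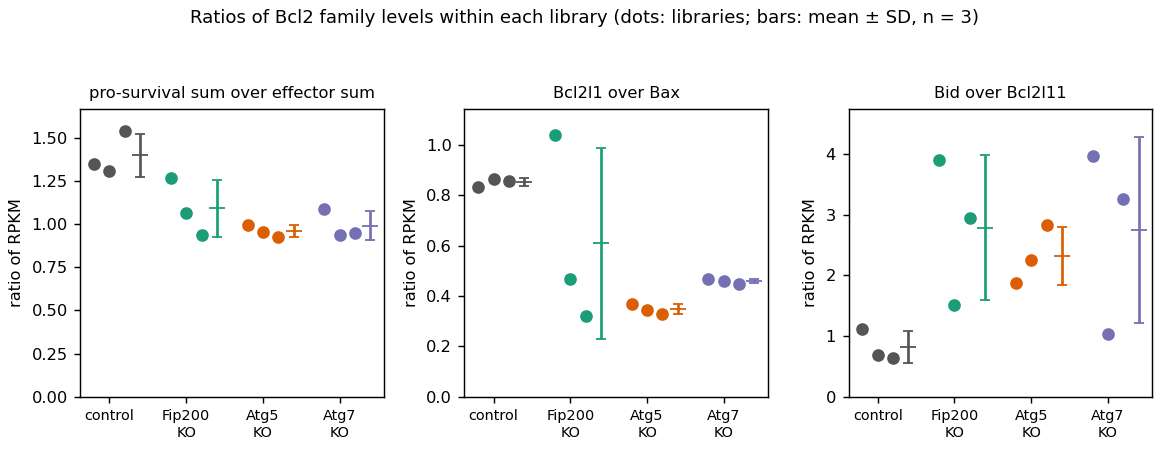
Ratios of RPKM within each library (vertical axes, from 0) by group, for summed pro-survival over summed effector level, Bcl2l1 over Bax, and Bid over Bcl2l11; dots are libraries in replicate order and bars the mean ± SD of 3. The first ratio is at least 1.31 in controls and at most 1.27 in KO libraries, and Bcl2l1 over Bax in Atg5 KO and Atg7 KO cells is at most 0.466 against at least 0.832 in controls.

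The rest of the apoptosis pathway was read from 10 lists of 58 genes, of which 51 were in the tables and 49 were tested. Loss of Fip200 left 1 of them lower and 0 higher past the test, loss of Atg5 7 lower and 12 higher, and loss of Atg7 6 lower and 6 higher, where the 6 lower include Fas and Bmf, which met the filter on low values only through the control libraries. With the prefix as a term these numbers were 0, 2 and 0 in all. The shares of all genes tested were 1.69% and 0.356%, 18.7% and 22.9%, and 13.7% and 11.3%. Genes other than the strongest of each list, among them Casp2, Apaf1, Htra2, Aifm1, Birc3, Cflar, Bag6, Usp9x and Dffa, were named after their values were seen. The median log2 difference over the 49 genes was -0.03, 0.09 and -0.03, so the lists as a whole did not lean far to either side.

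Of 5 caspases, 0 passed in Fip200 KO, 1 lower and 1 higher in Atg5 KO and 2 lower in Atg7 KO cells. Casp6, an executioner, was 16.7, 22.0 and 25.6 RPKM in controls, 13.2, 12.4 and 10.6 in Atg5 KO, 6.59, 9.81 and 9.70 in Atg7 KO and 8.24, 15.9 and 7.88 in Fip200 KO cells, so that all 9 KO libraries were below the controls. It fell by 0.79 in Atg5 KO cells (SE 0.179, limma adjusted p = 0.0205) and by 1.25 in Atg7 KO cells (SE 0.230, limma adjusted p = 0.0210), and its difference in Fip200 KO cells was -1.02 (SE 0.319, limma adjusted p = 0.195). Casp9, the apoptosome's initiator, also fell in Atg7 KO cells (by 0.68, limma adjusted p = 0.0562), and Casp2 rose in Atg5 KO cells (by 0.36, limma adjusted p = 0.0875), each call holding in 2 of the 6 fits with a library left out.

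Of the other Bcl2 relatives, the pro-survival Bcl2l2 fell in Atg5 KO cells (by 0.45, limma adjusted p = 0.0577), and in 2 of the 6 fits with a library left out as well. The BH3-only gene Bmf was at 0.357, 0.201 and 0.425 RPKM with Atg7 lost against 1.10, 1.09 and 1.77 in controls. It was tested there only because all 3 controls reached 0.5 RPKM, so its call could hardly fail, and with no filter on low values its log2 difference was -1.13 (limma adjusted p = 0.0316). At such levels the pseudocount of 0.5 makes the log2 difference understate the change in RPKM. Bok, a further effector, was 22.1, 6.49 and 6.36 RPKM in controls and 93.1, 29.4 and 29.0 in Fip200 KO cells, a log2 difference of 2.08 (SE 0.611, limma adjusted p = 0.180), and 1.53 without Fip200 KO replicate 1. Its difference was 1.05 with Atg5 lost and 1.07 with Atg7 lost (limma adjusted p = 0.156 and 0.147), and without control replicate 1 they were 1.62 and 1.64, past the threshold (adjusted p = 0.0181 and 0.0170). The lowest differences with a library left out were 0.763 and 0.777, and adjusted p-values in such fits ran up to 0.363 and 0.362. Control replicate 1, which shares the prefix of the Fip200 KO libraries, was the highest control. Bnip2 rose in Atg5 KO and Atg7 KO cells (by 0.46 and 0.58, limma adjusted p = 0.0557 and 0.0802). The Atg5 KO call held in 2 of 6 fits with a library left out, and the Atg7 KO call was lost whichever library was left out (adjusted p from 0.105 to 0.207).

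Downstream of the pore, 2 of 6 apoptosome and mitochondrial genes passed higher and 1 lower in Atg5 KO cells, with Cycs, the gene of cytochrome c, up by 0.56 (limma adjusted p = 0.0107), Apaf1 by 0.54 (0.0882) while Endog, a mitochondrial nuclease, fell by 0.47 (0.0593). With Atg7 lost, Htra2 rose by 0.92 (limma adjusted p = 0.0726) and Aifm1 fell by 0.40 (0.0820). The calls of Apaf1, Htra2 and Aifm1 held in 1 of 6 fits with a library left out, that of Endog in 3, and that of Cycs in all 6. Among 6 tested inhibitors of apoptosis, Birc5, the gene of survivin, which also serves in mitosis, was 5.11, 9.27 and 8.57 RPKM in controls, 16.2, 11.2 and 14.3 in Atg7 KO and 16.7, 16.8 and 15.4 in Atg5 KO cells. It rose by 0.85 (SE 0.260, limma adjusted p = 0.0698) with Atg7 lost and by 1.08 (SE 0.218, limma adjusted p = 0.0146) with Atg5 lost. Birc6 also rose in Atg5 KO cells (by 0.53, limma adjusted p = 0.0270), and Birc3 fell in Atg7 KO cells (by 0.65, limma adjusted p = 0.0573). With a library left out, the Atg7 KO call of Birc5 held in 1 of 6 fits and that of Birc3 in 3.

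In the death receptor arm, Fas was at 1.44, 1.64 and 2.67 RPKM in controls and 0.183 to 0.539 in the 9 KO libraries, on 6 to 21 reads each. On the log2(RPKM + 0.5) scale it fell by 1.35 with Atg5 lost and by 1.33 with Fip200 lost (limma adjusted p = 0.00995 and 0.0986), but in Fip200 KO cells the call was lost on leaving out any library but Fip200 KO replicate 3 (adjusted p up to 0.501). With Atg7 lost Fas, like Bmf, was tested only because the controls reached 0.5 RPKM, and its log2 difference with no filter was -1.59 (limma adjusted p = 0.0213). These differences too understate the change, since mean RPKM was 1.92 in controls and 0.438 (Fip200 KO), 0.431 (Atg5 KO) and 0.291 (Atg7 KO) in the others, below the pseudocount. Fadd, the adaptor below Fas, rose in Atg5 KO and Atg7 KO cells by 0.89 and 0.84 (limma adjusted p = 0.0289 and 0.0629), and Cflar, the inhibitor of caspase-8, fell in Atg5 KO cells by 0.35 (0.0990). With a library left out, the Cflar call held in 1 of 6 fits and the Atg7 KO call of Fadd in 2. Of 11 partners and turnover factors, Bag1 rose by 0.62 and 0.69 in Atg5 KO and Atg7 KO cells (limma adjusted p = 0.00750 and 0.0295), Bag6 rose in Atg5 KO cells (by 0.42, 0.0160), and Vdac3 and Usp9x, which removes ubiquitin from Mcl1, fell there (by 0.61 and 0.53, 0.0106 and 0.0486). The Usp9x call and the Atg7 KO call of Bag1 each held in 4 of 6 such fits. All 3 genes of the list on caspase cleavage and DNA breakage, Dffa, Dffb and Parp1, rose in Atg5 KO cells (by 0.42, 0.56 and 0.83, limma adjusted p = 0.0853, 0.0509 and 0.00635), where 22.9% of all genes passed higher, and Parp1 rose in Atg7 KO cells (by 0.66, 0.0798). The Dffa call was lost whichever library was left out (adjusted p from 0.106 to 0.208), that of Dffb without any 1 of the Atg5 KO libraries, and that of Parp1 in Atg7 KO cells held in 1 of 6 such fits. The number of pathway genes that passed in Atg7 KO cells, 12 with all libraries, was 4, 2 and 2 without control replicates 1, 2 and 3, and 4, 17 and 5 without Atg7 KO replicates 1, 2 and 3, and Casp6 was among them each time. Fas and Bmf were not tested there without a control, when too few libraries reached the filter. In Atg5 KO cells that number, 19 with all libraries, was 12 without control replicate 3 and 10 without Atg5 KO replicate 1 or 2, and Casp6, Cycs, Birc5, Birc6, Fas, Fadd, Vdac3, Bag1, Bag6 and Parp1 passed in all 6 such fits.

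**Figure D4:**
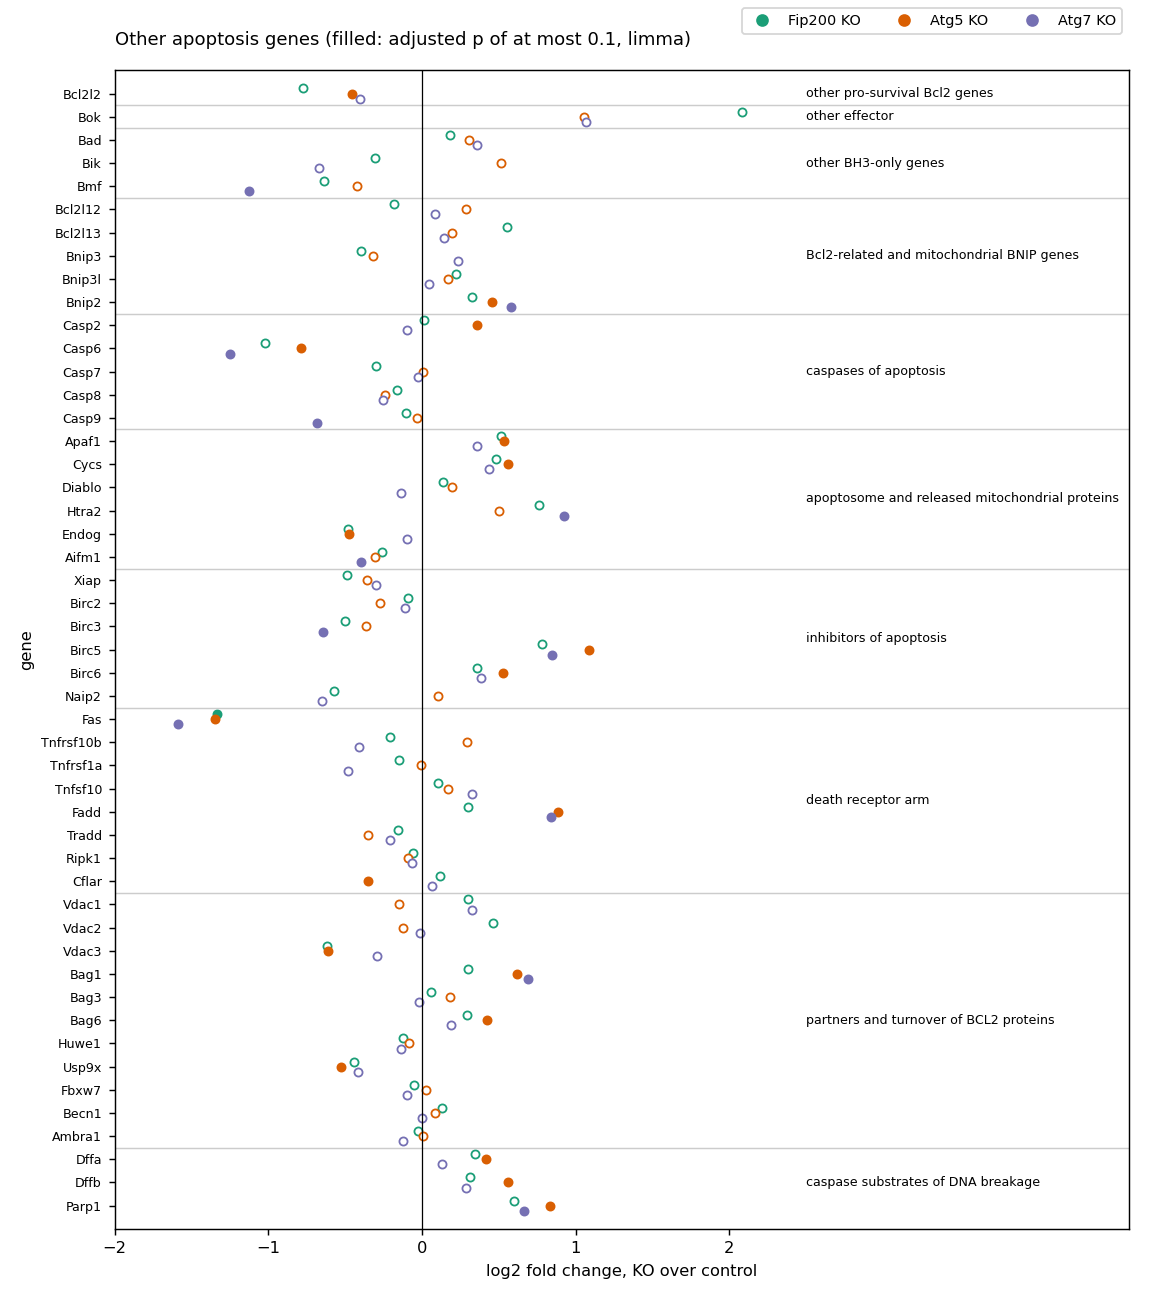
Log2 fold change of KO over control on the log2(RPKM + 0.5) scale (horizontal axis) for the 49 tested pathway genes, grouped by list, after loss of Fip200, Atg5 and Atg7; filled points passed an adjusted p of at most 0.1 by limma. The points of Fas are the lowest, from -1.33 to -1.59, and Bok is the highest at 2.08 without passing.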

How the data were processed

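Total RNA of 562 cells was sequenced from stranded libraries, aligned by the authors with TopHat2, counted per gene and deposited as RPKM in 3 tables of 14851 genes, each with the same control values and 1 knockout. The genome build and annotation are not given in the sources used here. From the deposited RPKM, which sets no count test as the main one, log2(RPKM + 0.5) was fitted per comparison with limma 3.58.1 in R 4.3.3 (trended empirical Bayes) over genes that reached 0.5 RPKM in 3 or more of the 6 libraries. 1 row without a symbol was left out. Adjusted p-values are Benjamini-Hochberg over all genes tested. A gene passed, which the text also terms a call, where the adjusted p was 0.1 or less, and those with a change of 1 or more on the log2 scale were also counted. Knockouts were compared with each other as contrasts in 1 fit of 12 libraries. The scripts were checked on simulated data.

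Whole reads were recovered from the RPKM values for all 14851 genes, and 99.89% of the gene lengths this implies were whole within 0.05 bases. Depth was 17264989 to 23627965 reads per library, so genes such as Pmaip1 and Fas rest on few reads. Libraries were grouped by their labels, and the replicates differed by more than sampling noise, with a lowest chi-square per degree of freedom of 8.66. The members and lists were chosen with earlier results of these data known. All 9 members were named, along with pathway genes that passed with such a change in at least 1 comparison or among the 2 smallest adjusted p-values of their list. 1 gene of the pathway lists is not reported here and was left out of their counts. Alternatives were other pseudocounts, filters and scaling, a prefix term, a replicate block, all 12 libraries in 1 fit, limma voom on the recovered reads, and leaving out each library. Promoters came from RefSeq on GRCm38.p6.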

Additional observations from a re-analysis of the deposited data

How the results depend on the processing

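Of 360 alternative values of the 8 tested members against control, 315 kept their direction and side of the threshold, 31 lost the call, 3 gained it and 11 changed sign. Members passed in Fip200 KO cells in no leave-one-out fit, and 2 passed with all 12 libraries in 1 fit. In Atg5 KO cells the number that passed, 5, was 0 with the prefix term, 3 with the replicate block, 2 with 12 libraries and 3 to 4 with a library left out. For Atg7 KO that number, 2, was 0, 1, 1 and 1 to 3. The number of pathway genes that passed in Fip200 KO cells went from 1 to 0 with pseudocounts of 0.1 and 1, no filter on low values, a mean RPKM of at least 1, the prefix term and voom, to 4 with 12 libraries and to 0 to 2 with a library left out. In Atg5 KO cells this number, 19, was 2 with the prefix term, 6 with 12 libraries and 10 to 19 with a library left out. For Atg7 KO this number, 12, was 0, 6 and 2 to 17, and 4 with the replicate block. Signs changed only in values that had not passed. Bak1 in Fip200 KO cells ran from -0.37 to 0.012 with a library left out. Mcl1 in Atg5 KO cells was -0.024 with median-of-ratios scaling and -0.026 with voom, and -0.14 to 0.20 with a library left out. Mcl1 in Atg7 KO cells was 0.17 with the prefix term and -0.20 to 0.14 with a library left out, and Bid -0.26 to 0.55. The cause was not tested. Deviations of same-numbered libraries from their group means correlated between -0.5 and 0.25. These values showed no steady positive pairing by replicate number. With 3 libraries a group they cannot decide whether same-numbered libraries were prepared together. Depth limits Pmaip1, Bbc3 and Fas.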

Other observations

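Over the 12 libraries, the genes whose log2(RPKM + 0.5) followed Bcl2l11 most closely among 12232 genes were Adamts1 (Pearson r = 0.962), Klhl24 (0.942) and Ranbp9 (0.931). For Bcl2l1 they were Fbxl21 (0.927), Inpp5a (0.922) and Rnh1 (0.916), for Bax Gemin7 (0.937), Ubxn6 (0.924) and Atf5 (0.921), for Bid Sdcbp (0.941), Washc2 (0.901) and Med11 (0.899), and for Bbc3 Tapbp (0.853), H2-D1 (0.843) and Cryzl1 (0.839). These values describe 12 libraries in 4 groups, which share their controls' level, their library-name prefixes and the groups' differences, and were not tested. Among the members themselves Mcl1 and Bak1 were closest (0.814), followed by Mcl1 and Bax (0.687) and Bcl2l1 and Bbc3 (0.671), and Bcl2 and Bcl2l1 ran most opposite (-0.722).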
